A study of Homo sapiens with 2 samples.

Results

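The genes described here encode the subunits of the 5 complexes of oxidative phosphorylation that are made from nuclear DNA. Members were all protein-coding genes with symbols of the families NDUFA, NDUFB, NDUFC, NDUFS, NDUFV and NDUFAB1 (complex I), SDHA to SDHD (complex II), UQCR and CYC1 (complex III), COX4 to COX8 (complex IV) and ATP5 (complex V), under old or new names. Of 99 matching symbols, 8 assembly factors of the NDUFAF series and 2 read-through genes were left out, which left 89 members of the 63677 gene IDs in the count tables: 37 of complex I, 4 of complex II, 10 of complex III, 19 of complex IV and 19 of complex V. NDUFA4 and NDUFA4L2, named for complex I, were counted with complex IV, where NDUFA4 is now placed.

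RNA was sequenced from MDA-MB-231, an established line of triple-negative breast cancer cells, with 1 library from cells given Carpesium cernuum extract (CCE), a plant extract, and 1 library from control cells. The labels carry the dose of 1 µg/mL and the time of 24 h on both samples, and do not say what was given to control cells. The CCE library held 34884501 counts on genes and the control library 5633569. After scaling for library size, 1 count was worth 0.0283 CPM (counts per 1000000 of the scaled library size) in the CCE library and 0.180 CPM in the control library, so the control library set the precision. Since each condition has 1 library, no replicate check and no test could be made. Each log2 ratio, CCE over control, is given with an exact 95% Clopper-Pearson interval, which covers counting error only. For a gene with the same level in both libraries, the interval ran from 0.809- to 1.25-fold at 100 control counts and from 0.935- to 1.07-fold at 1000. In bulk RNA, fewer cells of a type and less RNA per cell cannot be told apart.

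Markers of the cell line were in place: VIM, CD44, EGFR, AXL and CAV1 lay between 158 and 1801 CPM in the CCE library and between 339 and 3739 CPM in the control library. Of 6 markers listed as low or absent in such cells, ESR1, PGR and CDH1 had 0, 6 and 1 counts in the CCE library and 0 counts each in the control library. The other 3 were present: the receptor gene ERBB2 had 51.8 CPM in CCE and 55.4 CPM in control, the keratin gene KRT8 129 CPM in CCE and 175 CPM in control, and EPCAM 265 counts in CCE and 56 in control. The immune markers PTPRC and CD3E and the fibroblast collagen gene COL1A2 had at most 11 counts in the CCE library and at most 2 in the control library.

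The respiratory chain passes electrons from NADH (complex I) and succinate (complex II) through ubiquinone to complex III, by way of cytochrome c to complex IV, and from there to oxygen. Complexes I, III and IV pump protons across the inner mitochondrial membrane, and complex V, ATP synthase, makes ATP as the protons flow back. Each complex has a catalytic core that carries out the electron transfer or ATP synthesis and, other than complex II, many small accessory subunits around it, and all but complex II also hold subunits encoded by the mitochondrial genome.

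Transcription of many of these genes is known to depend on the factors NRF1, GABPA (of the ETS family) and YY1, so their promoters were read for short core motifs of these factors. RefSeq (GRCh38.p14) gave promoters, from 250 bases before to 50 bases after the start, for 72 of the 89 members and for 15320 protein-coding genes in all. The motif of ETS factors, CCGGAAG, stood in 20 member promoters (27.8%), against 14.4% of all promoters, with both strands read. The YY1 motif ATGGCGG stood in 19 (26.4%), against 7.77%, and the NRF1 motif GCATGCG in 13 (18.1%), against 5.14%. A match is a description of the letters and not a binding site. Among measured members, the median log2 ratio was 0.11 with an ETS match and -0.043 without, -0.031 with a YY1 match and 0.045 without, and -0.020 with an NRF1 match and 0.036 without.

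The promoters of the 2 members with the highest ratio, NDUFB8 (chr10:100529874-100530173, minus strand) and NDUFB7 (chr19:14572017-14572316, minus strand), and of the 2 with the lowest, NDUFS3 (chr11:47578824-47579123, plus strand) and NDUFS7 (chr19:1383657-1383956, plus strand), are shown to set the ends of the range side by side. Capitals mark matches to any of the 3 motifs on either strand. NDUFB8 had none, NDUFB7 had 1 ETS match, NDUFS3 had 2 ETS matches and 1 YY1 match, and NDUFS7 had 1 YY1 match and 2 NRF1 matches that overlap on opposite strands.
NDUFB8: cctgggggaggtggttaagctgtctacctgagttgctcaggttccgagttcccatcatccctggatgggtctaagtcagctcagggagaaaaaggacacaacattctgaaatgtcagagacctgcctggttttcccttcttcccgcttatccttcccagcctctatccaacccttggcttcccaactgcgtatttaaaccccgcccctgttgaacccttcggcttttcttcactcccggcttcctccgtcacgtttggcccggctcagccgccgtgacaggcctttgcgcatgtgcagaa
NDUFB7: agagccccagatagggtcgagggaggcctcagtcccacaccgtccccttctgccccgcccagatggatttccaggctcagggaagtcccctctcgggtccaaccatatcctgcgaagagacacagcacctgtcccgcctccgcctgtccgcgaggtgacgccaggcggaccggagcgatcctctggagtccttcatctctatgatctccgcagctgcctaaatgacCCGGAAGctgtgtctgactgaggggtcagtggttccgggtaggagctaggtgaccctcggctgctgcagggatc
NDUFS3: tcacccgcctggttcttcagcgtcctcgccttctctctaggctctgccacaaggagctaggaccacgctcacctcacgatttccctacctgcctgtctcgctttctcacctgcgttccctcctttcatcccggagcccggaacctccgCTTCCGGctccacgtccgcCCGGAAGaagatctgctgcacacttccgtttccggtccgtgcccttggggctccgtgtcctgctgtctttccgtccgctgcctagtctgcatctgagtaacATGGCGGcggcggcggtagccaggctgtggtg
NDUFS7: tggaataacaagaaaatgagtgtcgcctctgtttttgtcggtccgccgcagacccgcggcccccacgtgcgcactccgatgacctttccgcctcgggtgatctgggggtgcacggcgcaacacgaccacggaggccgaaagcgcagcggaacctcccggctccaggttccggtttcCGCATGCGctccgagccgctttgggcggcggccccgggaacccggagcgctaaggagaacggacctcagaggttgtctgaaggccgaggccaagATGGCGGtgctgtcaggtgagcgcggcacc

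Of the 89 members, 79 counted as measured, with a mean over both libraries of 1 CPM or more: 35 of 37 of complex I, 4 of 4 of complex II, 10 of 10 of complex III, 12 of 19 of complex IV and 18 of 19 of complex V. Their median was 3980 counts in the CCE library and 640 in the control library, and 75 of 79 had at least 100 control counts. Ratios were small and went both ways. The median log2 ratio was 0.0061, with a range of -0.48 to 0.93, against a median of 0.051 over all 11637 measured protein-coding genes. Of the 79 members 40 lay above 0 and 39 below, and the interval lay wholly above a ratio of 1 for 27, wholly below it for 27 and held it for 25. Genes close to 0 changed side with the scaling: 5 moved above it with total counts (NDUFA6, NDUFA8, NDUFC2, SDHB and UQCRC2) and 5 below it with the upper quartile (NDUFA12, UQCR10, UQCRH, NDUFA4 and ATP5PO). The median itself was 0.044 with total counts and -0.039 with the upper quartile.

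At a ratio of at least 1.5-fold with an interval that excluded 1, 5 members were higher in CCE (6.33%) and 0 were lower. Among all measured protein-coding genes these shares were 11.5% higher and 10.9% lower. At 2-fold, 0 members were called in either direction, where 3.26% of protein-coding genes were higher and 4.33% lower. The 5 higher members were NDUFB8, NDUFB7 and NDUFA3 of complex I and UQCR11 and UQCRHL of complex III. Counting any interval that excluded 1, the shares were 34.2% higher and 34.2% lower for members and 32.7% higher and 26.6% lower for all protein-coding genes.

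Summed over all 89 members, measured or not, the CCE library held 12105 CPM and the control library 12439 CPM, a log2 ratio of -0.039 (-0.051 to -0.028), and 1.23% of gene counts in each. The sums of the complexes lay close together as well. Complex I summed to 2928 CPM in CCE and 2931 CPM in control, and complex III to 1843 CPM in CCE and 1962 CPM in control. Complex IV summed to 2834 CPM in CCE and 2695 CPM in control, and complex V to 4079 CPM in CCE and 4352 CPM in control. Complex II stood lowest, with 422 CPM in CCE and 498 CPM in control, a log2 ratio of -0.24 (-0.30 to -0.18).

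**Figure D1:**
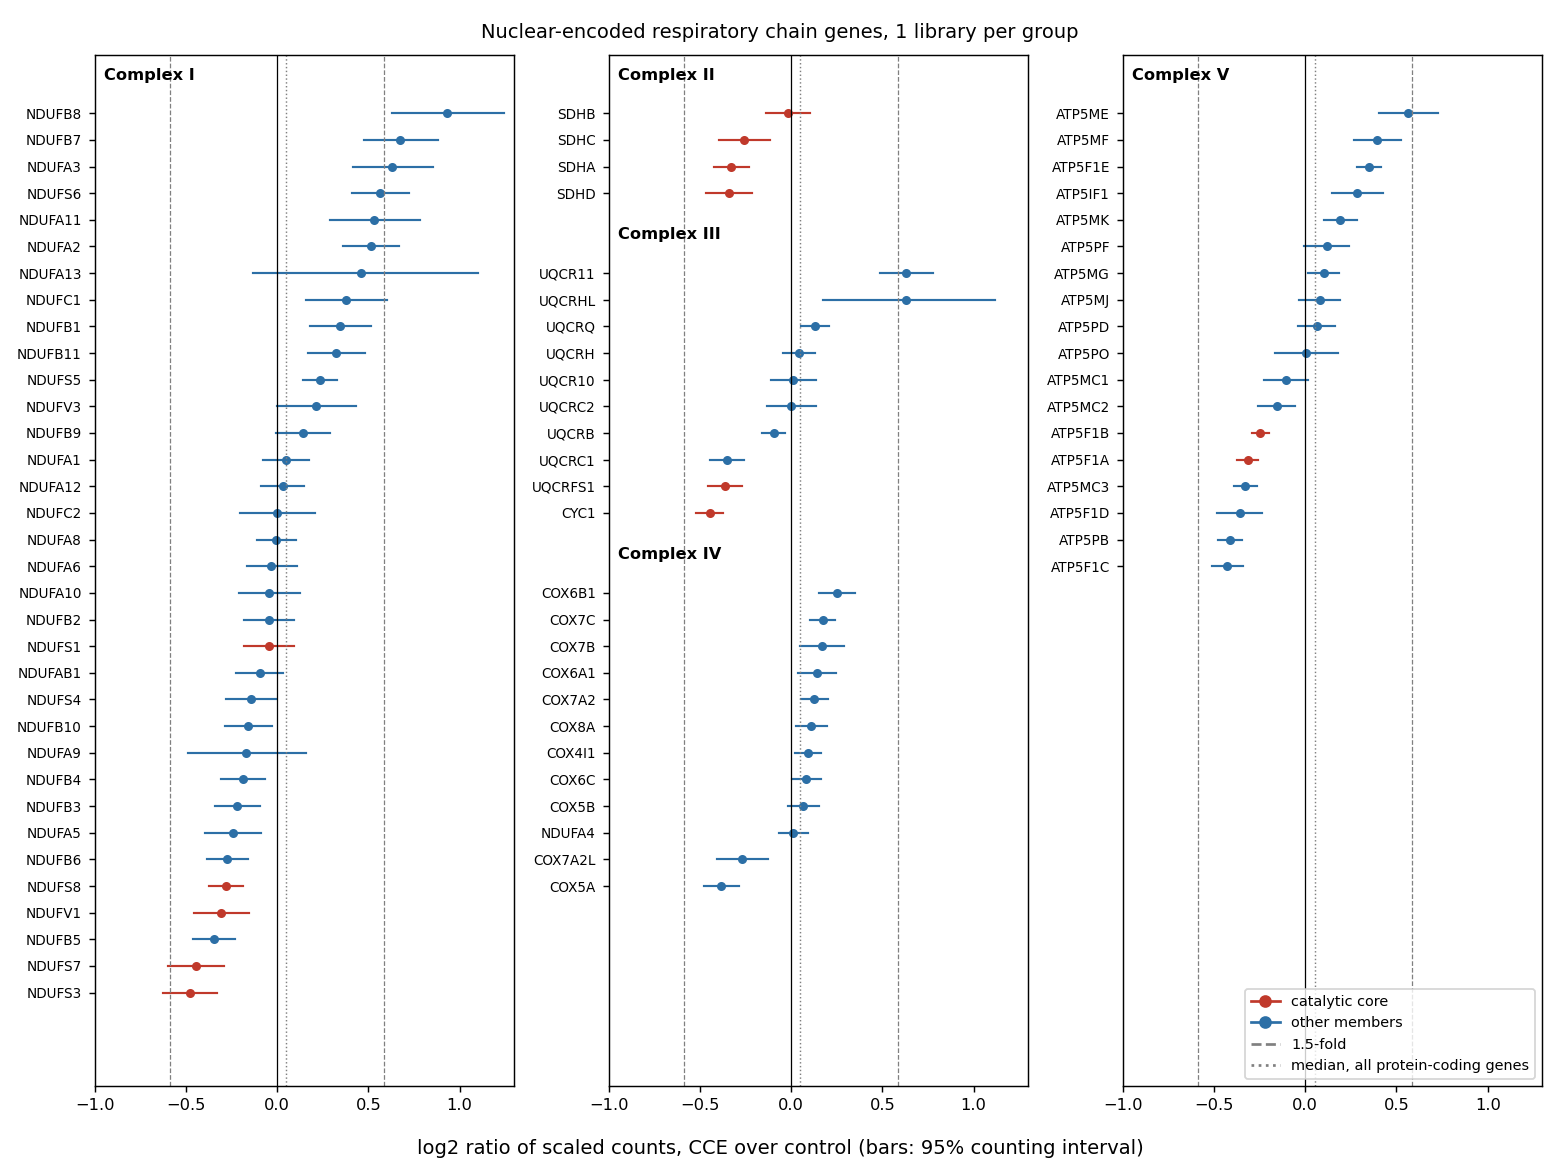
Log2 ratio of library-scaled counts, CCE over control, for 78 of the 79 measured members, by complex and in order of the ratio; points are ratios and bars their 95% counting intervals, with 1 library per group. Red marks the catalytic core, with SDHB closest to 0 at -0.020, and blue the other members; dashed lines mark 1.5-fold and the dotted line the median of all protein-coding genes at 0.051.

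The largest complex, complex I, takes electrons from NADH in a matrix arm and couples them to proton pumping in a membrane arm. Its 35 measured genes had a median log2 ratio of -0.031, with 10 intervals (28.6%) above 1, 11 (31.4%) below and 14 that held it. Over all protein-coding genes 32.7% of intervals lay above 1 and 26.6% below. The 14 measured matrix arm genes had a median of -0.12, and 10 lay below 0. The 20 membrane arm genes had a median of 0.095, and 11 lay above 0. The spread within each arm was wider than the gap between the arms, since both held genes above 0.5 and below -0.3.

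The matrix arm core genes were all below 0. NDUFS3, a core subunit at the base of the arm, had 2109 counts (59.7 CPM) in CCE and 462 (83.1 CPM) in control, a log2 ratio of -0.48 (-0.62 to -0.33) and the lowest of all measured members. NDUFS7, which carries the last iron-sulfur cluster before ubiquinone, had 2011 counts (56.9 CPM) in CCE and 431 (77.5 CPM) in control, a log2 ratio of -0.45 (-0.60 to -0.29). NDUFV1, which binds NADH and the flavin that accepts its electrons, had 2277 counts (64.4 CPM) in CCE and 443 (79.7 CPM) in control, at -0.31 (-0.45 to -0.16). These 3 core genes were lower in CCE beyond counting error. NDUFS8, another iron-sulfur subunit, was the most abundant of the core in scaled counts, with 167 CPM in CCE and 203 CPM in control, at -0.28 (-0.37 to -0.19). NDUFS1, the largest subunit and the holder of several iron-sulfur clusters, had 86.9 CPM in CCE and 89.7 CPM in control, at -0.047 (-0.18 to 0.093). The interval of NDUFS1 held a ratio of 1, so a difference was not detectable for it at this depth. NDUFS3 shares exon bases with PTPMT1 on its strand and CELF1 on the other, and NDUFS7, NDUFV1, NDUFS8 and NDUFS1 overlap other annotated genes.

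NDUFV2, also a core gene, and NDUFA7, an accessory gene of the same arm, could not be measured from the counts. NDUFV2 had 22 counts in CCE and 1 in control, and NDUFA7 had 25 and 0, yet the authors' FPKM listed NDUFV2 at 88.8 in CCE and 125 in control and NDUFA7 at 62.5 in CCE and 56.8 in control. Both genes share exons with a gene on the same strand, ENSG00000265257 for NDUFV2 and ENSG00000167774 for NDUFA7, and NDUFA7 also meets RPS28 on the other strand. Whether that overlap accounts for the low counts was not tested.

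The accessory genes of complex I held its highest ratios. NDUFB8, a membrane arm subunit often probed as a marker of assembled complex I, had 1175 counts (33.2 CPM) in CCE and 97 (17.4 CPM) in control. Its log2 ratio of 0.93 (0.63 to 1.24), or 1.91-fold, was the highest of all measured members. NDUFB8 shares exons with ENSG00000255339 on its strand and with HIF1AN on the other, and has 2 named pseudogenes. NDUFB7, a membrane arm subunit that faces the intermembrane space, had 2224 counts (62.9 CPM) in CCE and 219 (39.4 CPM) in control, 1.60-fold higher at 0.68 (0.48 to 0.88). NDUFB7, on chromosome 19 from 14676890 to 14682878 (GRCh37), overlaps no other gene and has no named pseudogene. NDUFA3, a small membrane arm subunit, had 1871 counts (52.9 CPM) in CCE and 190 (34.2 CPM) in control, 1.55-fold higher at 0.63 (0.42 to 0.85), and it overlaps TFPT on the other strand and has 5 named pseudogenes.

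NDUFS6, a zinc-binding accessory subunit of the matrix arm, came next with 98.9 CPM in CCE and 66.9 CPM in control, at 0.56 (0.41 to 0.72). NDUFA11 (0.53) and NDUFA2 (0.51), chosen after their values were seen, also had intervals above 1, though NDUFA11 lay below 0 by FPKM. In the other direction, NDUFB5, a membrane arm subunit, had 104 CPM in CCE and 133 CPM in control, at -0.35 (-0.46 to -0.23). The 29 measured accessory genes thus spanned most of the range, with a median of 0.030, against -0.29 for the 6 measured core genes. Per kb of exon the most abundant complex I genes were NDUFS5, an intermembrane space subunit, with 400 CPM per kb in CCE and 340 in control, and NDUFA1, with 258 CPM per kb in CCE and 249 in control. NDUFS5 was higher in CCE, at 0.24 (0.14 to 0.33), and the interval of NDUFA1 (-0.079 to 0.18) held no difference. NDUFA13, the least counted of the measured members, had 227 counts in CCE and 26 in control, too few to place its ratio of 0.46 (-0.13 to 1.10) on either side. The authors' FPKM listed NDUFA13 at 68.7 in CCE and 181 in control. It shares exons on its strand with ENSG00000258674 and YJEFN3, and the part of that overlap in its low counts was not tested.

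**Figure D2:**
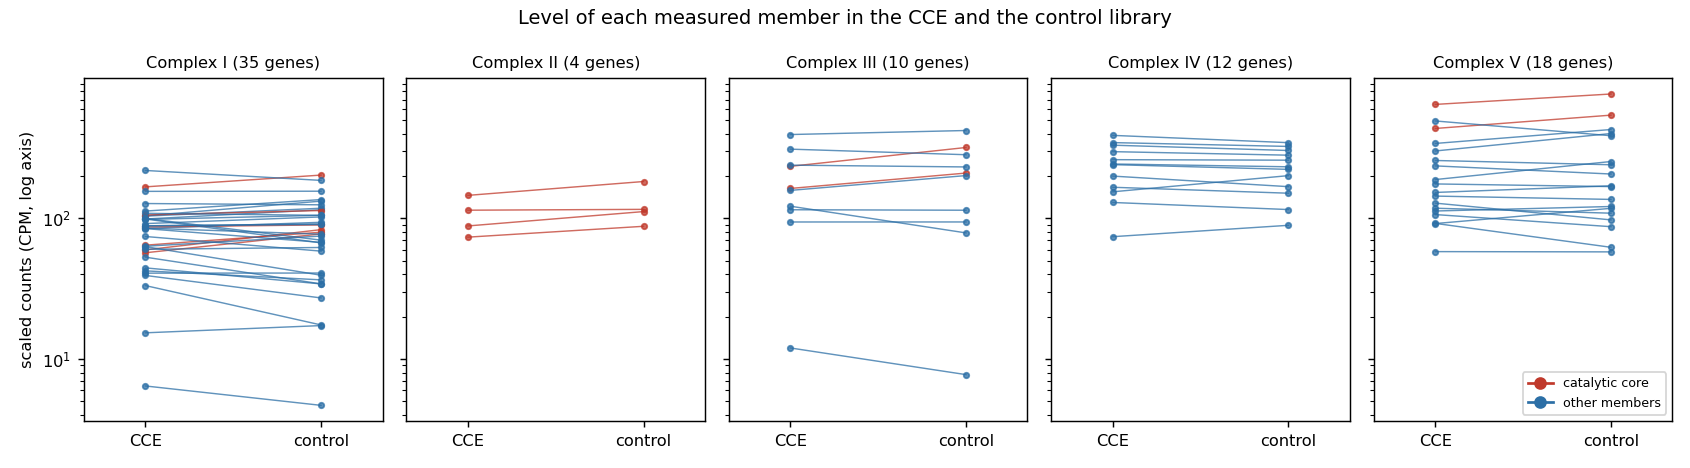
Level of each measured member in CPM on a log axis, in the CCE library (left) and the control library (right), by complex; a line joins the values of a gene and each group has 1 library. Complex V reaches the highest levels, with ATP5F1B at 646 CPM in CCE and 766 CPM in control, and the red lines of the catalytic core end lower on the CCE side, for SDHB by no more than 114 CPM in CCE against 116 CPM in control.

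Succinate dehydrogenase, complex II, is also an enzyme of the citric acid cycle and is wholly nuclear-encoded. All 4 of its genes lay below 0, with a median log2 ratio of -0.29, though SDHB moved to 0.018 under total-count scaling. Of the 4 intervals 3 (75%) lay below 1, against 26.6% over all protein-coding genes. SDHA, the flavoprotein that oxidises succinate, had 5148 counts (146 CPM) in CCE and 1016 (183 CPM) in control, at -0.33 (-0.42 to -0.23). SDHD and SDHC, which anchor the enzyme in the membrane and form the ubiquinone site, had 88.3 and 73.5 CPM in CCE against 112 and 87.8 CPM in control, at -0.34 (-0.46 to -0.21) and -0.26 (-0.40 to -0.11). SDHB, the iron-sulfur subunit, stood apart with 114 CPM in CCE and 116 CPM in control, at -0.020 (-0.14 to 0.10). Per kb of exon SDHB and SDHC were the most abundant, SDHB with 46.7 CPM per kb in CCE and 47.4 in control and SDHC with 38.6 in CCE and 46.1 in control. All 4 genes have at least 1 named pseudogene, so some of their reads may be placed on copies or dropped.

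Complex III passes electrons from ubiquinol to cytochrome c through an iron-sulfur protein and cytochrome c1. Both of these redox subunits were lower in CCE. CYC1, which encodes cytochrome c1, had 8282 counts (234 CPM) in CCE and 1774 (319 CPM) in control, at -0.45 (-0.52 to -0.37). UQCRFS1, the Rieske iron-sulfur protein, had 5765 counts (163 CPM) in CCE and 1167 (210 CPM) in control, at -0.36 (-0.45 to -0.27). Neither gene overlaps another gene. The core proteins, which face the matrix and descend from a processing protease, parted: UQCRC1 had 158 CPM in CCE and 201 CPM in control, at -0.35 (-0.44 to -0.26), while UQCRC2, chosen after its value was seen, had 94.2 CPM in both libraries.

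The small subunits of complex III had a median of 0.087, and the whole complex 0.0053, or -0.18 over members without exon overlap. UQCR11, the smallest of them, had 4311 counts (122 CPM) in CCE and 438 (78.8 CPM) in control, 1.55-fold higher at 0.63 (0.49 to 0.78). UQCR11 shares exons on its strand with ENSG00000267059, and by the authors' FPKM it was lower, with 60.5 in CCE and 110 in control. UQCRH, the hinge protein that helps bind cytochrome c, had 239 CPM in CCE and 232 CPM in control, at 0.043 (-0.042 to 0.13), and was the most abundant complex III gene per kb of exon, with 178 CPM per kb in CCE and 173 in control. CYC1 came second by the mean of both libraries, with 119 CPM per kb in CCE and 163 in control, though UQCRQ exceeded it in CCE with 140 CPM per kb, against 128 in control. UQCRHL, an intronless near copy of UQCRH, had 423 counts in CCE and 43 in control, at 0.63 (0.18 to 1.12). Since reads of UQCRH and UQCRHL could be split between the pair in counting, the ratio of UQCRHL is uncertain.

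Cytochrome c oxidase, complex IV, hands the electrons to oxygen in a core of mitochondrially encoded subunits, and its nuclear genes encode the small subunits around that core. These genes were slightly higher in CCE as a group by counts. Of 12 measured, 10 lay above 0, 8 intervals (66.7%) lay above 1 and 2 (16.7%) below, and the median was 0.10. Over all protein-coding genes the median was 0.051, with 32.7% of intervals above 1 and 26.6% below. The complex IV median was 0.056 with upper-quartile scaling and 0.14 with total counts. The differences were small, with 0 genes past 1.5-fold, and the median turned to -0.12 by the authors' FPKM. Only COX8A and COX7A2L (-0.27) of the measured genes have no named pseudogene, and the median over this pair was -0.079. COX6B1, which joins the monomers of the enzyme, had 7058 counts (200 CPM) in CCE and 934 (168 CPM) in control, at 0.25 (0.15 to 0.35). COX7C and COX7B had 389 and 130 CPM in CCE against 345 and 115 CPM in control, both at 0.17. COX8A, the most abundant member per kb of exon in the whole set, had 488 CPM per kb in CCE and 451 in control, at 0.11 (0.025 to 0.20). COX7C was second in the complex, with 198 CPM per kb in CCE and 175 in control.

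Exceptions were COX5A and COX7A2L. COX5A, a matrix-side subunit that joins early in assembly, had 5458 counts (154 CPM) in CCE and 1119 (201 CPM) in control, at -0.38 (-0.48 to -0.29), without overlap with another gene. COX7A2L, a relative of COX7A2 that links complexes III and IV into supercomplexes, had 74.0 CPM in CCE and 89.2 CPM in control, at -0.27 (-0.41 to -0.13). NDUFA4 had 261 CPM in CCE and 259 CPM in control, at 0.012 (-0.068 to 0.093).

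Complex IV has paralogs with restricted tissue use, and in these cells the ubiquitous form carried the counts in each pair. COX4I1, the ubiquitous form of subunit 4, had 12216 counts in CCE and 1805 in control, at 0.091 (0.019 to 0.16), while its hypoxia-responsive paralog COX4I2 had 0 counts in both. COX6A1 (0.14, interval 0.036 to 0.25) and COX7A2 (0.13, interval 0.052 to 0.20) were measured, while the muscle forms COX6A2 and COX7A1 had 0 counts in CCE and 0 and 1 in control. COX6B2, COX7B2 and COX8C, forms known from testis, had 0 counts in both libraries. A count of 0 allows up to 3 counts, or 0.0849 CPM in CCE and 0.540 CPM in control. NDUFA4L2, the hypoxia-induced relative of NDUFA4, had 9 counts in CCE and 5 in control, below the level needed to be measured.

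ATP synthase, complex V, joins a catalytic F1 head to a proton-driven rotor and a membrane part by central and peripheral stalks. Its 18 measured genes had a median of 0.035, with 6 intervals (33.3%) above 1, 7 (38.9%) below and 5 that held it. Over all protein-coding genes 32.7% lay above 1 and 26.6% below. The parts of complex V lay on different sides of 0. Over the measured members that share no exon with another gene the median of the complex was -0.28. Those members are ATP5F1A, ATP5F1B, ATP5F1C and ATP5F1D of the head, ATP5MC1 of the c ring and ATP5MJ of the membrane part. The 5 genes of the head and central stalk had a median of -0.31, the 3 genes of the c ring -0.16, the 4 of the peripheral stalk 0.035 and the 5 measured of the membrane part 0.19. ATP5MGL, a copy of the gene of subunit g, had 1 count in CCE and 0 in control and was not measured.

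In the head, the alpha and beta subunits ATP5F1A and ATP5F1B form the catalytic ring. ATP5F1A had 15397 counts (436 CPM) in CCE and 3013 (542 CPM) in control, at -0.31 (-0.37 to -0.26). ATP5F1B was the most counted member, with 22834 counts (646 CPM) in CCE and 4260 (766 CPM) in control, and led the complex per kb of exon with 289 CPM per kb in CCE and 342 in control. ATP5F1C, the gamma subunit that turns inside the ring, had 189 CPM in CCE and 254 CPM in control, at -0.43 (-0.51 to -0.34), the lowest of the complex. ATP5F1D, the delta subunit of the stalk, chosen after its value was seen, had a log2 ratio of -0.36 (-0.48 to -0.24). The epsilon subunit gene ATP5F1E, also chosen after its value was seen, went the other way, with 493 CPM in CCE and 387 CPM in control, at 0.35 (0.28 to 0.41). ATP5F1E overlaps TUBB1 on the other strand, and the 4 lower genes of the head overlap no other gene.

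ATP5PB, subunit b of the peripheral stalk, had 10652 counts (301 CPM) in CCE and 2230 (401 CPM) in control, at -0.41 (-0.48 to -0.35), and the other 3 stalk genes, ATP5PO, ATP5PD and ATP5PF, lay between 0.0061 and 0.12. ATP5MC1, ATP5MC2 and ATP5MC3 encode the same mature c subunit of the rotor ring from different genes. ATP5MC3, the most counted of the 3, had 341 CPM in CCE and 428 CPM in control, at -0.33 (-0.39 to -0.26), ATP5MC2 had 153 CPM in CCE and 170 CPM in control, at -0.16 (-0.26 to -0.056), and ATP5MC1 had 113 CPM in CCE and 121 CPM in control, at -0.11 (-0.22 to 0.013). All 3 thus lay below 0, with the interval of ATP5MC1 holding a ratio of 1.

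The 5 measured small subunits of the membrane part, some of which join ATP synthase into dimers, were above 0 by counts, while their median by the authors' FPKM was -0.65. ATP5ME, subunit e, had 3253 counts (92.0 CPM) in CCE and 346 (62.2 CPM) in control, 1.48-fold higher at 0.56 (0.40 to 0.73). ATP5MF, subunit f, had 128 CPM in CCE and 97.5 CPM in control, at 0.40 (0.27 to 0.53). ATP5MK, the second most abundant of the complex per kb of exon, had 255 CPM per kb in CCE and 224 in control, at 0.19 (0.10 to 0.28). ATP5IF1, the inhibitor that keeps the enzyme from running in reverse, had 106 CPM in CCE and 87.2 CPM in control, at 0.29 (0.15 to 0.43). By FPKM, ATP5MF (-0.65), ATP5MK (-3.93), ATP5MG (-0.95) and ATP5IF1 (-0.26) lay below 0 and ATP5ME (1.96) above. Several of these genes overlap others: MYL5 for ATP5ME, PTCD1 and its read-through for ATP5MF, TAF5 and MIR1307 for ATP5MK, and ENSG00000290123 for ATP5IF1. The part of those overlaps in their counts was not tested.

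Read across the complexes, 15 genes made up the catalytic core: the conserved matrix arm subunits of complex I, such as NDUFS3 and NDUFV1, the 4 SDH genes, CYC1, UQCRFS1, ATP5F1A and ATP5F1B. All 14 that were measured lay below 0, other than SDHB under total-count scaling (0.018). Their median was -0.31, with a range of -0.48 to -0.020, and 11 intervals (78.6%) lay below 1. The other 65 measured members had a median of 0.067, with 40 above 0 and 25 below, 27 intervals (41.5%) above 1 and 16 (24.6%) below. Over all protein-coding genes 32.7% of intervals lay above 1 and 26.6% below. The core was not alone at the low end, since ATP5F1C, ATP5PB, COX5A, ATP5F1D, UQCRC1 and NDUFB5 lay between -0.43 and -0.35. Members that overlap no other gene kept the direction of this split, with medians of -0.26 for the core and 0.0057 for the others. The YY1 motif stood in 7 of the 11 core promoters at hand (63.6%) and in 12 of the 61 others (19.7%), a difference that was not tested.

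Core subunits are longer proteins than most accessory subunits, and the ratio moved with coding length. Over 78 members the rank correlation of the log2 ratio with coding length was -0.60, and it was -0.58 over the 37 members without exon overlap, -0.44 over 34 members of complex I and -0.82 over 18 of complex V. By the authors' FPKM it was -0.22 over the 78 members. Over 11495 other protein-coding genes it was 0.10, and over 73 genes of mitochondrial ribosomal proteins, another set of nuclear-encoded mitochondrial genes, it was -0.022. Those 73 genes were longer than the members, with a median of 588 coding bases against 417. Only 2 of them had up to 300 coding bases, against 23 members, so they say little about the shortest range. These are descriptions across genes that share the same 2 libraries, and the bounds used below were chosen after the values were seen. With GC content of the transcript the correlation over members was 0.19, and with mean CPM -0.25.

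Of 23 members with up to 300 coding bases, 22 lay above 0, with a median of 0.17, and NDUFB3 was the exception at -0.22; UQCR10, UQCRH and NDUFA4 were below 0 as well with upper-quartile scaling. The 35 members with more than 300 and up to 600 coding bases had a median of -0.0036, and of the 20 with over 600 coding bases 18 lay below 0, with a median of -0.29. Other protein-coding genes had medians of 0.016, -0.046 and 0.067 in the same 3 ranges, so they did not follow that order. Among members over 600 coding bases, the 12 core genes had a median of -0.31 and the 8 accessory genes -0.11. Whether length, function or both set the order was not tested.

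**Figure D3:**
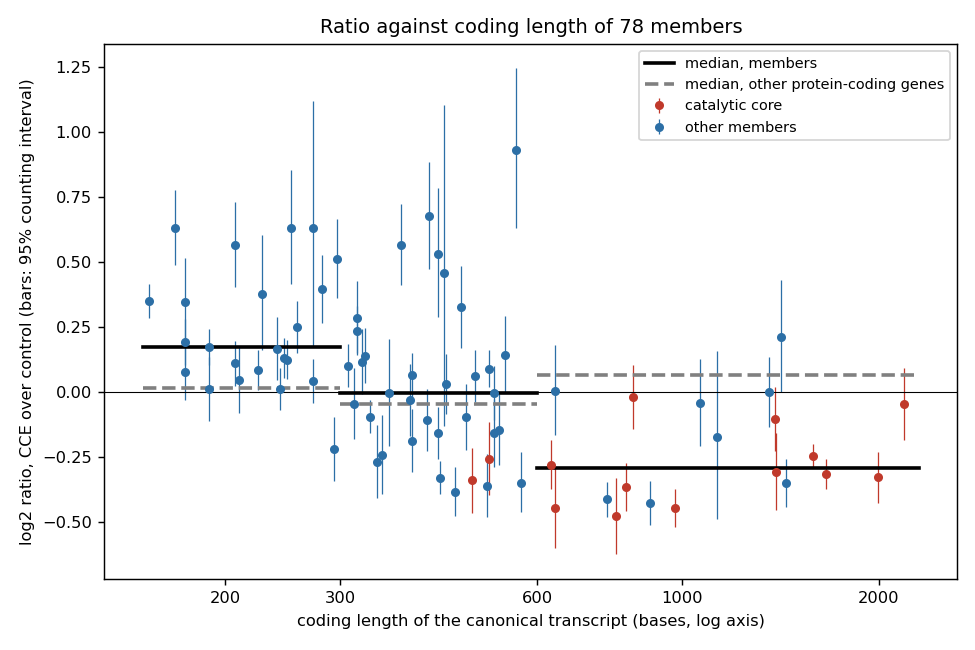
Log2 ratio of library-scaled counts, CCE over control, against the coding length of the canonical transcript on a log axis, for 78 members, with 95% counting intervals as bars. Solid black lines are member medians in 3 length ranges, at 0.17, -0.0036 and -0.29, and dashed grey lines those of other protein-coding genes, at 0.016, -0.046 and 0.067.

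The deposited FPKM values gave a different picture of single genes. All 79 measured members were listed above 0 FPKM in both libraries. On the log2(FPKM + 1) scale, 23 lay above 0 and 56 below, with a median of -0.30, against a median of -0.031 over all protein-coding genes. The sign matched that of the counts for 52 of 79. Of the 27 members with an interval below 1 by counts, 26 lay below 0 by FPKM, while of the 27 with an interval above 1 only 14 lay above 0. In the core 13 of 14 lay below 0 by FPKM, with NDUFS1 the exception, and the median was -0.47. The members outside the core had a median of -0.26 by FPKM, so both medians were below 0.

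By FPKM, 18 members passed 2-fold on the lower side and 5 on the higher side, where the counts gave 0 in each direction. The share of all protein-coding genes past 2-fold by FPKM was not computed. Whether these numbers are particular to the members is therefore not known. NDUFS6 was listed at 0.320 FPKM in CCE and 60.4 in control while its counts were higher in CCE, NDUFB4 was listed at 6.91 in CCE and 137 in control with a count ratio of -0.19, and ATP5MJ at 71.4 in CCE and 8.92 in control with a count ratio of 0.079. These 3 were chosen after their values were seen. NDUFB8 was listed at 150 FPKM in CCE and 144 in control and NDUFB7 at 101 in both, so the 2 highest count ratios were not seen in the FPKM values. The rank correlation of the ratios from counts and from FPKM was 0.34 over members and 0.33 over other protein-coding genes, across genes within the same libraries.

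**Figure D4:**
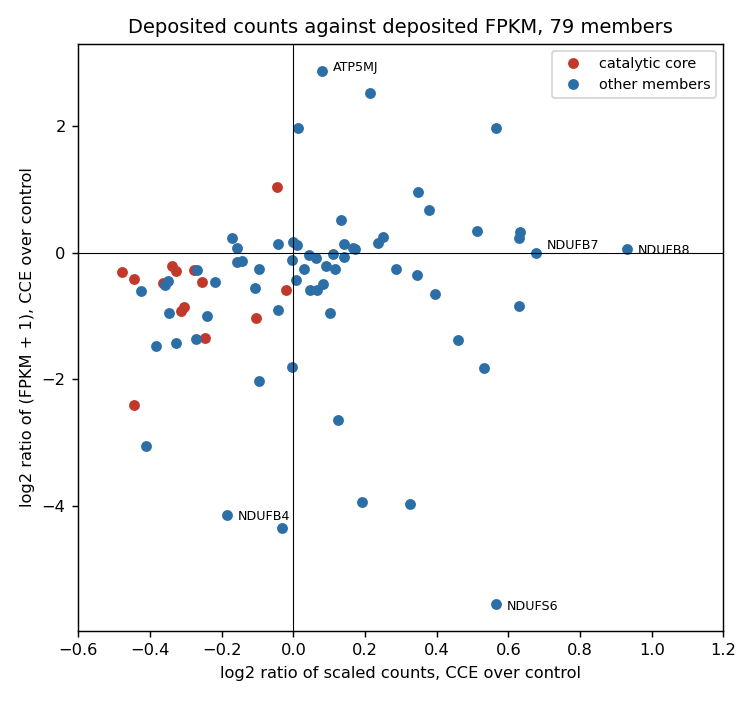
Log2 ratio of (FPKM + 1) against log2 ratio of library-scaled counts, CCE over control for both, for the 79 measured members; red points are the catalytic core and blue points the others, from 1 library per group. Most core genes sit in the lower left, below 0 by both measures, while NDUFB8 and NDUFB7 are high by counts and close to 0 by FPKM.

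The 13 mRNAs of the mitochondrial genome encode the partner subunits of complexes I, III, IV and V. They summed to 68897 CPM in CCE and 93316 CPM in control, 6.98% of gene counts in CCE and 9.21% in control. Set beside the nuclear sums, complex I differed least, with mitochondrial mRNAs at a log2 ratio of -0.19 and nuclear ones at -0.0018. For complex III, MT-CYB had -0.35 and the nuclear sum -0.091. For complex IV, the mitochondrial mRNAs of the catalytic core had -0.76 and the nuclear sum 0.072, and for complex V these values were -0.86 and -0.094. In each of the 4 complexes the mitochondrially encoded sum thus had the lower ratio. Singly, 12 of the 13 lay below 0, and MT-ND3 lay above, at 0.19 (0.16 to 0.23). The authors' FPKM of these mRNAs were uneven, with MT-CO2 listed at 507 in CCE and 0 in control and MT-CYB at 1.60 in CCE and 3711 in control. MT-ND3 and these FPKM values were chosen after they were seen.

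Assembly factors build the complexes without being part of them. Of 56 listed, 55 were measured, with a median of 0.14, and 10 were at least 1.5-fold higher (18.2%) and 1 lower (1.82%), against 11.5% and 10.9% of all protein-coding genes. Factors of complex IV held 5 of the 10 higher genes, with a median of 0.29 over 22 measured. PET100 had 338 counts in CCE and 24 in control, at 1.15 (0.55 to 1.81). COA5 had 1553 counts in CCE and 122 in control, at 1.00 (0.74 to 1.28), and COX17, which brings copper to the enzyme, had 1371 in CCE and 113 in control, at 0.93 (0.66 to 1.22). COA8, the fourth by size, had 0.67 (0.34 to 1.01). For complex I, 18 factors had a median of 0.078, with NDUFAF2 at 0.69 (0.55 to 0.83) and TMEM186 at 0.63 (0.28 to 1.00) higher and ECSIT at -0.69 (-0.93 to -0.46) lower. For complex III, UQCC3 had 0.86 (0.58 to 1.16) and UQCC2 -0.52 (-0.63 to -0.42), and the 6 factors had a median of 0.14. The 4 factors of complex II had a median of 0.14, and the 5 of complex V, which include the chaperone genes ATPAF1 and ATPAF2, 0.34. By the authors' FPKM the median over all 55 was -0.11, against -0.031 over all protein-coding genes. By complex the FPKM medians were -0.38 (I), 0.18 (II), 0.026 (III), -0.15 (IV) and 0.088 (V). Among the higher factors named here, only TMEM186 lay below 0 by FPKM, at -0.71. Of 73 measured mitochondrial ribosomal protein genes 0 were at least 1.5-fold higher and 3 lower, with a median of -0.021.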

How the data were processed

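Each library came with raw counts by Ensembl gene ID and with FPKM values, both deposited by the authors. Alignment was with HISAT2 to hg19 or GRCh37, as far as the submitters' processing notes name tool and build. Which programs made the counts and the FPKM, with which annotation and strand setting, is not given in these sources. Rows that name no gene (5 in each library's counts) took 66.8% of records of the CCE library and 62.9% of the control library and were left out. FPKM rows were summed per gene, and the depth behind them is unknown.

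Symbols, coding lengths (canonical transcript), exon overlap and biotypes came from GENCODE release 44 lifted to GRCh37, with bedtools 2.31.1. Libraries were scaled by TMM in edgeR 4.0.16 (R 4.3.3), with no pseudocount on counts. Intervals are exact 95% Clopper-Pearson (scipy 1.17.1, Python 3.11.15). No test was run, since each group has 1 library. The procedure was tested on simulated data.

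The members, lists and rules were chosen with earlier results of these data known. Named genes were members at least 1.5-fold apart, per complex the 4 with the largest ratio in either direction and the 2 most abundant per kb of exon, paralog pairs, the catalytic core with ATP5IF1, unmeasured members, and up to 4 per other list at a mean of at least 5 CPM. A gene that meets this rule is not reported here by name, though counts and medians include it. Alternatives were scaling by DESeq2 1.42.0, by upper quartile, by total counts and by TMM on nuclear genes, FPKM with a pseudocount of 1 or 0.1, other filters, and members without overlap or pseudogenes. Counting NDUFA4 and NDUFA4L2 with complex I, and recomputing the core medians and the length correlation, were added after seeing the data.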

Additional observations from a re-analysis of the deposited data

How the results depend on the processing

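Scaling was repeated with DESeq2 size factors and with TMM on nuclear genes. Other settings were no filter on CPM, a mean of 5 CPM, and NDUFA4 and NDUFA4L2 counted with complex I. The medians, sums, counts of members and length correlation computed under each kept their direction and stayed close to the reported values. All measured members already had a mean above 5 CPM, with NDUFA13 lowest at 5.55, so that filter removed none. A change of scaling shifts every log2 ratio by the same amount, so the length correlation could not move under it. Total-count scaling turned the median of complex I to 0.0066 and gave 7 members at least 1.5-fold higher, and upper-quartile scaling turned the medians of all members to -0.039, of III to -0.040 and of V to -0.010. Total-count scaling gave sums of 0.036 (complex I), -0.053 (III), 0.11 (IV) and -0.056 (V) on the log2 scale, and upper-quartile scaling -0.047, -0.14, 0.028 and -0.14 for the same complexes.

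With FPKM and a pseudocount of 1, with the value at 0.1 in brackets, the median over all members was -0.30 (-0.31). By complex it was -0.30 (-0.31) for I, -0.37 (-0.38) for II, -0.23 (-0.23) for III, -0.12 (-0.12) for IV and -0.54 (-0.54) for V. It was -0.47 (-0.48) for the core and -0.26 (-0.265) for other members. The medians of all members, of III, IV and V and of the members outside the core were above 0 by counts, so they changed side. Sums, which take in members not measured by counts such as NDUFV2 and NDUFA7, were -0.52 (-0.52) for I, -0.40 (-0.40) for II, -0.057 (-0.057) for III, -0.081 (-0.081) for IV, reversed, and -0.55 (-0.55) for V. By fold alone, without an interval, members at least 1.5-fold lower numbered 29 (29), 2-fold higher 5 (5) and 2-fold lower 18 (19). The matching shares over all protein-coding genes were not computed. The length correlation was -0.22 (-0.22), and UQCR11 reversed to -0.85 (-0.86). The cause was not tested.

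Over members that overlap no other gene, 2 were 1.5-fold higher, and sums were 0.048 (I), -0.12 (II), -0.24 (III), 0.026 (IV) and -0.26 (V), with medians of -0.031 for all members, -0.18 for III and -0.28 for V, on the other side of 0 from the reported ones. Over members with no named pseudogene, 3 were 1.5-fold higher, the median of all members was -0.017, and sums were -0.058 (I) and 0.0086 (IV). The complex IV median reversed to -0.079 there, but it rests on COX8A and COX7A2L alone. Complex II has no such member and gave no value there. These settings leave fewer genes, and the measured complex V members without overlap are mostly genes of the head. Counting any interval that excludes 1 gave 27 higher and 27 lower. No paired analysis was possible because each group has 1 library, and no replicate could be left out. Depth of the control library limits genes under 100 control counts.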

Other observations

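Of 15 measured genes that carry electrons between the complexes or make ubiquinone, 1 was at least 1.5-fold higher in CCE (6.67%) and 2 were lower (13.3%), near the shares over all protein-coding genes of 11.5% and 10.9%. Their median log2 ratio was 0.16, against 0.051 over all protein-coding genes. By the authors' FPKM it was -0.30, against -0.031. COQ2, which attaches the side chain of ubiquinone, had 435 counts (12.3 CPM) in CCE and 154 (27.7 CPM) in control, at -1.17 (-1.44 to -0.90). ETFB, a subunit of the flavoprotein that feeds electrons from fatty acid oxidation into ubiquinone, had 1133 counts in CCE and 98 in control, at 0.86 (0.56 to 1.18). By the authors' FPKM ETFB was lower, with 15.7 in CCE and 19.5 in control. COQ8A and PDSS2, both of ubiquinone synthesis, each had 0.49. CYCS, which encodes cytochrome c and was chosen after its value was seen, had 300 CPM in CCE and 351 CPM in control, at -0.23 (-0.30 to -0.16).

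Regulators of mitochondrial gene expression and replication had a median of 0.18 over 17 measured genes, against 0.051 over all protein-coding genes, with 1 at least 1.5-fold higher (5.88%) and 0 lower, where those genes had 11.5% and 10.9%. TWNK, the mitochondrial DNA helicase, had 61.5 CPM in CCE and 40.3 CPM in control, at 0.61 (0.41 to 0.82). TFB2M, a mitochondrial transcription factor, had 0.52 (0.25 to 0.81), the nuclear factor gene NRF1 0.43 (0.043 to 0.84) and GABPB1 0.35 (0.081 to 0.63). By the authors' FPKM the median of the 17 genes was -0.22, against -0.031 over all protein-coding genes. TFB2M (-0.24) and GABPB1 (-0.31) lay below 0 by FPKM, and TWNK (0.50) and NRF1 (1.81) above. PPARGC1A, a coactivator of mitochondrial gene expression chosen after its value was seen, had 225 counts in CCE and 41 in control, at -0.21 (-0.70 to 0.31).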
